A study of Mus musculus with 4 samples.

Results

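The genes that carry proteins into mitochondria, and the chaperones and proteases that receive them in the mitochondrial matrix, were followed in brown-like adipocytes made in culture from mouse epididymal white fat. Members were chosen by name: 24 genes whose symbol begins with Timm or Tomm, and 15 of 17 listed partners of the import machinery, which gives 39 of the 18193 genes on the array. Only probe sets annotated to 1 gene counted, and where a gene had several, the brightest by its mean of the 4 arrays stands for it. Of the 39, 37 had a mean log2 signal above 6.13, the 40th percentile of all probe sets, and were tested. Timm8a2 and Tomm20l lay below this filter. Dnajc19, Tomm5 and Tomm6 are represented by probe sets that name several genes and have no value here, and Immp2l was not analysed here.

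The cultures came from the stromal vascular fraction of the fat pad, the mix of preadipocytes, immune and vascular cells left when mature fat cells are removed. Donors were male mice aged 4 months, either Lgr4 homozygous mutant (2 arrays) or wild-type (2 arrays). Cells of both genotypes were grown in medium with 10% serum and 10 ng/ml of the growth factor bFGF. They were induced for 48 h with insulin, isobutylmethylxanthine, dexamethasone, T3 and troglitazone and kept for 6 more days in insulin, T3 and troglitazone, so every array carries thyroid hormone and a PPAR gamma agonist. The labels call the 2 arrays of a genotype biological replicates. They do not say what the Lgr4 mutation is or whether those 2 arrays came from separate animals. The p-values therefore reflect how far apart these arrays lie, a spread that may not include differences between animals. The series' design text speaks of Lgr4 ablation and asks whether it changes how far these cells become brown-like. Lgr4 is a receptor for R-spondins that strengthens Wnt signalling.

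Nearly all mitochondrial proteins are made in the cytosol and enter through the TOM channel of the outer membrane. Proteins with a cleavable presequence then cross the inner membrane through the TIM23 complex, pulled in by a motor built around the matrix Hsp70 (Hspa9), whereas metabolite carriers are escorted by small TIM chaperones to the TIM22 complex. In the matrix the presequence is cut off, the chaperonin of Hspd1 and Hspe1 helps folding, and the proteases Lonp1 and Clpp with Clpx remove damaged proteins. Brown adipocytes are packed with mitochondria, and their uncoupling protein is itself a member of the carrier family that the TIM22 route inserts.

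Across the whole array, 29.8% of 13173 tested genes differed between genotypes in limma at an adjusted p of 0.05, 11.1% higher and 18.7% lower in the mutant, and the median difference of all tested genes was -0.03 on the log2 scale. Correlation between arrays was 0.99774 within the mutant pair, 0.99541 within the wild-type pair and 0.98217 to 0.98671 across genotypes, over probe sets, which are not independent replicates. Lgr4 itself read 6.18 and 6.09 on the mutant arrays and 8.65 and 8.205 on the wild-type arrays, a difference of -2.29 (SE 0.144, adjusted p = 1.45e-05), though whether its probe set lies within the altered part of the gene is not given. All 10 tested adipocyte markers were higher in the mutant, with a mean log2 signal of 12.55 and 12.49 on the mutant arrays and 9.78 and 9.87 on the wild-type arrays. Among brown fat markers, Cox8b (3.94) and Cox7a1 (1.44) rose, as did Ucp1 (2.40) and Elovl3 (4.16), whose wild-type means (5.43 and 6.07) lay below the signal filter, and Dio2 and Prdm16 did not pass. Ppargc1a, at 6.86 and 6.83 in the mutant and 4.85 and 5.02 in wild-type, and Otop1, at 6.54 and 6.55 in the mutant and 4.49 and 4.69 in wild-type, had means below the filter and were higher in a fit without it (adjusted p = 4.81e-06 each), whereas Cidea differed by -0.13 there. Of 10 macrophage markers, none rose and 5 fell, with a mean of 12.39 and 12.38 in the mutant and 12.72 and 12.77 in wild-type. The macrophage fallers numbered 2 when either mutant array was left out and 8 without wild-type replicate 1. Among adipose progenitor markers 3 of 7 fell and none rose. Of 7 mural cell markers, 4 fell, namely Rgs5 (-2.09), Cnn1 (-0.74), Myh11 (-0.68) and Acta2 (-0.56), and Cspg4 rose (0.39). The mean of these markers was 9.16 and 9.25 in the mutant and 9.74 and 9.75 in wild-type. The mutant mean of Rgs5 (5.66) lay below the signal filter, and the other Myh11 probe set above the filter gave -0.03. Without mutant replicate 1 the mural fallers numbered 2, and without either mutant array Cspg4 did not pass. The lymphocyte markers Cd3g, Cd79a and Cd2, the mesothelial markers Msln and Lrrn4 and the endothelial marker Tie1 lay below the filter. Of 7 endothelial markers tested, Cdh5 rose (0.42), Vwf fell (-0.40) and 5 did not pass. The mutant mean of Vwf (5.99) lay below the filter. Of 4 tested markers in the lymphocyte list, Ptprc fell (-0.58) and 3 did not pass. None of 4 tested mesothelial markers passed. These shifts stand beside every result below, and their part in them was not tested. In RNA from a whole culture, a change in how many cells of a type are present and a change in RNA per cell cannot be told apart.

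Import and matrix chaperone genes were broadly and modestly higher in the Lgr4 mutant cultures. Of the 37 tested members, 27 rose, none fell and 10 did not pass the test, against 11.1% higher and 18.7% lower among all genes tested. The rises ran from 0.32 to 0.98 on the log2 scale, or 1.25-fold to 1.98-fold, and 15 of the 27 exceeded 0.5. The median difference was 0.41 over the 37 tested genes and 0.40 over all 39 without the filter, beside -0.03 for all genes tested. In 32 of the 37 the lower mutant array read above the higher wild-type array, a pattern seen in 28.9% of all genes tested. The reverse, with both mutant arrays below both wild-type arrays, held for 1 member (Grpel2) and for 39.9% of all genes tested. Without mutant replicate 1 the count of risers was 14, and without mutant replicate 2 it was 15, with no member lower in either case. The same 14 genes passed in every fit that left out 1 array: Clpp, Grpel1, Hspa9, Hspd1, Hspe1, Lonp1, Pmpcb, Timm10, Timm22, Timm44, Timm50, Timm8a1, Timm9 and Tomm40.

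**Figure D1:**
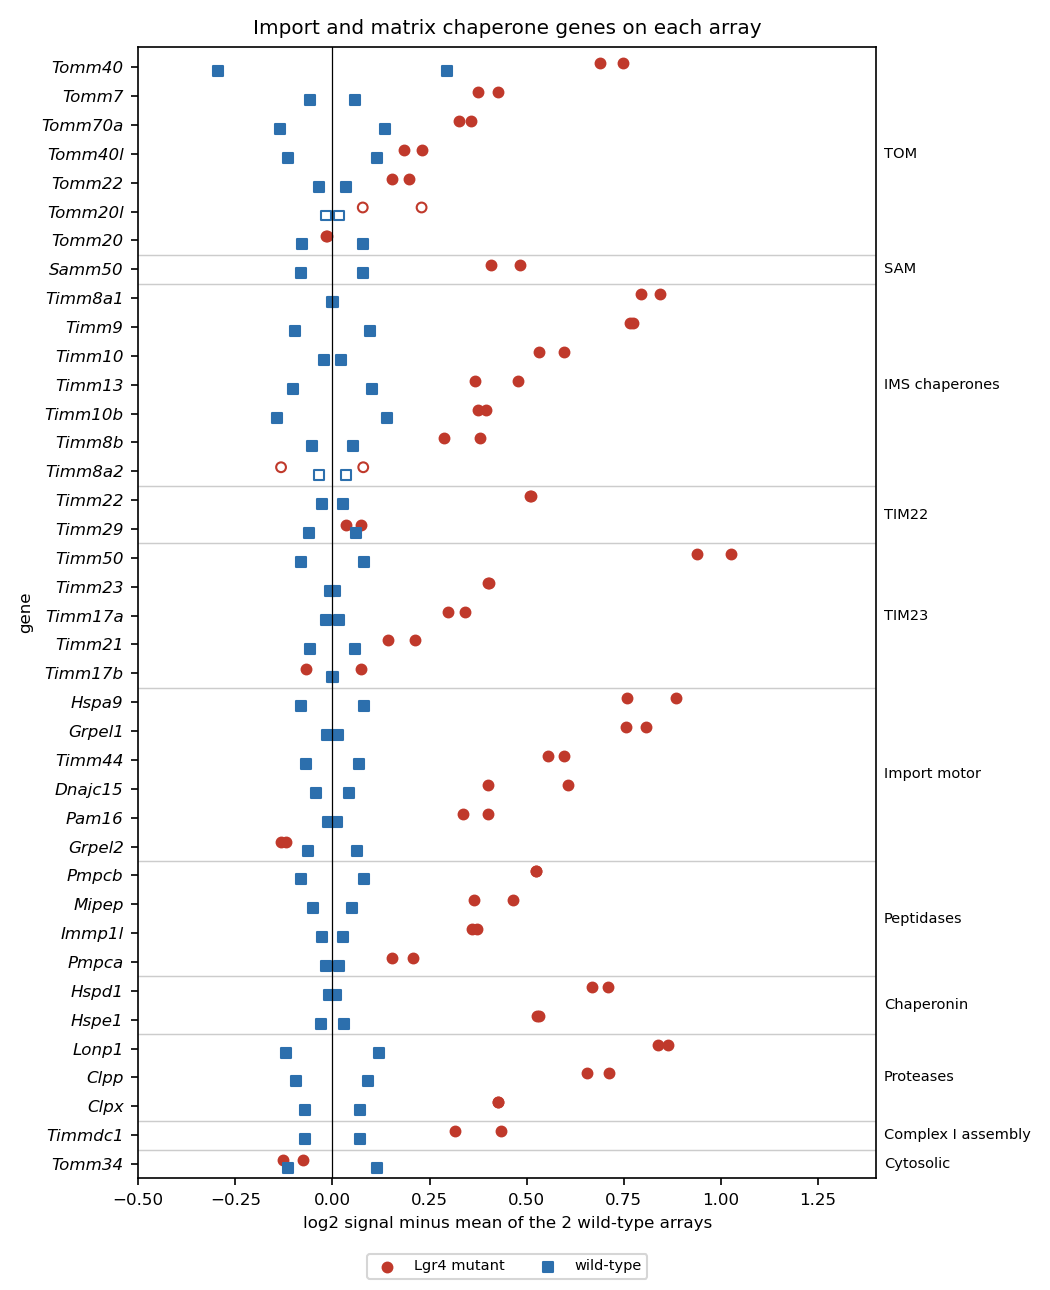
Log2 signal of each of the 39 genes on each array, minus the mean of the 2 wild-type arrays (x axis), with genes grouped by role (y axis); circles are mutant arrays, squares wild-type arrays, and open symbols mark the 2 genes below the signal filter. Mutant circles lie to the right of both wild-type squares in 32 of the 37 tested genes, while Tomm20, Timm17b, Timm29 and Tomm34 overlap and Grpel2 lies to the left.

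At the outer membrane the channel gene rose and the 3 receptor genes did not pass. Tomm40, which forms the pore of the TOM complex, read 9.89 and 9.83 on the mutant arrays and 8.85 and 9.44 on the wild-type arrays. The mutant arrays were close together and above both wild-type arrays, which were themselves far apart. The difference was 0.72 (SE 0.172, adjusted p = 0.0156), and it was 0.42 without wild-type replicate 1 and 1.01 without wild-type replicate 2. Such fits drop the gap between the wild-type arrays from the error, so they cannot weigh it. Tomm7, a small subunit that modulates the assembly of the complex, read 11.25 and 11.31 in the mutant and 10.82 and 10.94 in wild-type, a rise of 0.40 (SE 0.0959, adjusted p = 0.0156), with 0.21 to 0.52 over its 3 probe sets above the filter. That call ended when either mutant array was left out (adjusted p = 0.11 and 0.161).

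Tomm20, the receptor that recognises presequences, read 13.29 on both mutant arrays and 13.39 and 13.23 on the wild-type arrays. The mutant values fell between the wild-type values, and the difference of -0.01 had a 95% interval of -0.24 to 0.21 (adjusted p = 0.925). All 6 of its probe sets were above the filter and differed by -0.17 to 0.10. Tomm22, the central receptor that docks the others onto the pore, differed by 0.17 (95% interval -0.04 to 0.39, adjusted p = 0.19). Tomm70a, the receptor for carrier precursors brought by cytosolic Hsp70 and Hsp90, read 10.61 and 10.58 in the mutant and 10.39 and 10.11 in wild-type. Its difference of 0.34 just missed the threshold (SE 0.113, adjusted p = 0.0526), passed without wild-type replicate 1 (0.48, adjusted p = 0.00336), and ranged from -0.13 to 0.34 over its 4 probe sets above the filter. Tomm40l, a paralogue of the pore gene, differed by 0.21 (adjusted p = 0.182), and passed only in the fit on the other 3 arrays without wild-type replicate 2 (0.32, adjusted p = 0.0148). Tomm20l read 5.14 and 4.99 in the mutant and 4.93 and 4.90 in wild-type, below the filter throughout.

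Samm50, the core of the machinery that inserts beta-barrel proteins into the outer membrane, read 11.73 and 11.65 in the mutant and 11.16 and 11.32 in wild-type. Mutant arrays were higher throughout, by 0.45 (SE 0.101, adjusted p = 0.0123), and its second probe set above the filter gave 0.64. Leaving out either mutant array ended the call (adjusted p = 0.133 and 0.0607). Tomm34, a cytosolic cochaperone that shares the family name without being part of the channel, overlapped between genotypes with a difference of -0.10 (95% interval -0.35 to 0.14).

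The small chaperones of the intermembrane space rose in each of the 6 tested genes. These proteins pair up into ring-shaped complexes that shield hydrophobic precursors on the way to the inner membrane. Timm8a1, the partner of Timm13, read 10.19 and 10.24 in the mutant and 9.40 and 9.39 in wild-type, a rise of 0.82 or 1.76-fold (SE 0.0915, adjusted p = 3.87e-04). Its second probe set gave 0.83. Timm9, the partner of Timm10, read 7.97 and 7.98 in the mutant and 7.11 and 7.30 in wild-type, a rise of 0.77 (SE 0.103, adjusted p = 9.94e-04). Timm10 read 10.79 and 10.72 in the mutant and 10.17 and 10.21 in wild-type, a rise of 0.56 (SE 0.0928, adjusted p = 0.00297). None of these 3 genes had overlapping groups.

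Smaller rises were seen for Timm13 (0.42), Timm10b (0.39), which tethers the small TIM complex to TIM22, and Timm8b (0.33). Timm10b no longer passed once wild-type replicate 1 was dropped (0.24, adjusted p = 0.0539) or when every probe set was tested on its own (adjusted p = 0.0542). Calls of Timm13, Timm10b and Timm8b also ended when either mutant array was left out, with differences of 0.29 to 0.48. Timm8a2 was near the bottom of the signal range, at 3.29 and 3.08 in the mutant and 3.24 and 3.17 in wild-type.

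In the inner membrane, the largest rise of all members was that of Timm50, the TIM23 subunit that catches presequences as they leave the TOM channel. It read 10.07 and 9.99 in the mutant and 8.97 and 9.13 in wild-type, a difference of 0.98 or 1.98-fold (SE 0.101, adjusted p = 2.49e-04). Mutant and wild-type arrays were far apart on this probe set, and the other probe set above the filter showed a smaller rise of 0.47. Timm23, the channel subunit, read 12.15 on both mutant arrays and 11.74 and 11.75 in wild-type, a tight pattern that gave a rise of 0.40 (SE 0.0908, adjusted p = 0.0123). Timm17a, the channel's second core subunit, rose by 0.32 (SE 0.0917, adjusted p = 0.0319). Timm21, which links TIM23 to the respiratory chain, differed by 0.18 (95% interval -0.04 to 0.40). Calls of Timm23 and Timm17a ended when either mutant array was left out.

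In the carrier route, the channel gene Timm22 read 10.34 on both mutant arrays and 9.86 and 9.80 on the wild-type arrays. The groups were well separated, with a rise of 0.51 (SE 0.0917, adjusted p = 0.00447), although its dimmer probe set gave 0.15. Timm29, a subunit described in the human TIM22 complex, read 9.68 and 9.64 in the mutant and 9.66 and 9.54 in wild-type. These values overlapped, with a difference of 0.05 (95% interval -0.17 to 0.27). Its dimmer probe set gave 0.20, without overlap between genotypes.

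The motor that pulls presequence proteins into the matrix rose in 5 of its 6 measured genes. Hspa9, the matrix Hsp70, read 11.82 and 11.69 in the mutant and 11.02 and 10.85 in wild-type, a rise of 0.82 or 1.77-fold (SE 0.104, adjusted p = 7.59e-04). The next brightest probe sets gave 0.76 and 0.58, and a dim probe set just above the filter gave 0.02. Grpel1, the nucleotide exchange factor that resets Hspa9, read 11.53 and 11.48 in the mutant and 10.74 and 10.71 in wild-type, a rise of 0.78 (SE 0.0919, adjusted p = 5.18e-04). Timm44, the anchor that holds Hspa9 at the channel, read 10.48 and 10.52 in the mutant and 9.86 and 9.99 in wild-type, a rise of 0.58 (SE 0.0971, adjusted p = 0.00334). Each of these 3 genes had both mutant arrays above both wild-type arrays.

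Dnajc15, a J-protein that stimulates the motor's ATPase, read 10.74 and 10.53 in the mutant and 10.18 and 10.09 in wild-type, a rise of 0.50 (SE 0.106, adjusted p = 0.00924). Pam16, the J-like partner that restrains it, rose by 0.37 (SE 0.0922, adjusted p = 0.0187). Grpel2, the second exchange factor gene, was the tested member with the lowest difference. It read 8.98 and 8.96 in the mutant and 9.16 and 9.03 in wild-type, so both mutant arrays lay below wild-type, but the difference of -0.13 did not pass (95% interval -0.35 to 0.09, adjusted p = 0.353). Its other probe set gave -0.18. Dnajc15 no longer passed once mutant replicate 1 was dropped (0.40, adjusted p = 0.137), nor did Pam16 when either mutant array was left out.

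**Figure D2:**
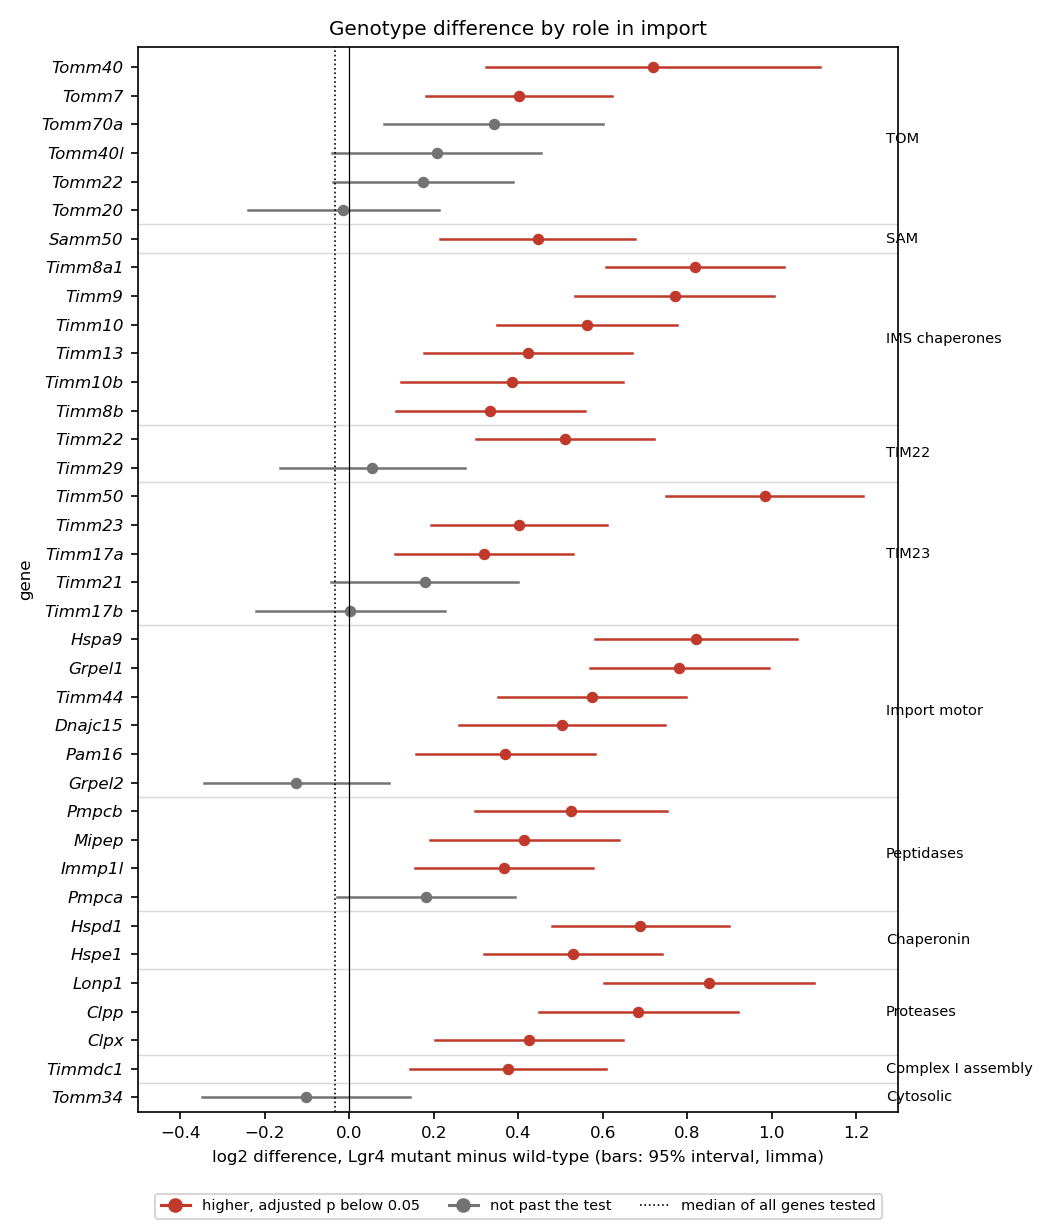
Log2 difference between Lgr4 mutant and wild-type (x axis) for the 37 tested genes by role (y axis), with 95% intervals from limma; red marks genes past an adjusted p of 0.05, grey the others, and the dotted line the median of all tested genes at -0.03. The small TIM chaperones, the chaperonin and the proteases are red throughout, whereas 4 of the 6 tested TOM family genes are grey.

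Among the peptidases that trim imported proteins, the catalytic subunit of the main processing enzyme passed and its partner did not. Pmpcb, the catalytic beta subunit of the mitochondrial processing peptidase, read 10.82 on both mutant arrays and 10.37 and 10.21 in wild-type, a rise of 0.52 (SE 0.0991, adjusted p = 0.00564). Pmpca, the alpha subunit that binds the presequence, read 10.42 and 10.36 in the mutant and 10.22 and 10.19 in wild-type. Its groups did not overlap, but the difference of 0.18 did not pass (95% interval -0.03 to 0.39, adjusted p = 0.172). The 2 genes lay closer on their other probe sets above the filter, with 0.36 for Pmpcb and 0.25 for Pmpca. Mipep, which removes a further octapeptide from some precursors, rose by 0.41 (SE 0.0972, adjusted p = 0.0144), and Immp1l, a peptidase of the inner membrane, by 0.37 (SE 0.0917, adjusted p = 0.0188). Both of these calls ended when either mutant array was left out.

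Both subunits of the matrix chaperonin rose. Hspd1 (Hsp60), which forms the folding barrel, read 12.21 and 12.16 in the mutant and 11.49 and 11.50 in wild-type, a rise of 0.69 or 1.61-fold (SE 0.0913, adjusted p = 9.76e-04). Hspe1 (Hsp10), the lid of the barrel, read 11.72 and 11.71 in the mutant and 11.16 and 11.21 in wild-type, a rise of 0.53 or 1.44-fold (SE 0.0918, adjusted p = 0.00378). Replicates lay close together and the genotypes far apart in both genes, and a second Hspe1 probe set gave 0.67.

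The 2 genes lie head to head on chromosome 1 on opposite strands. RefSeq (GRCm38.p6) lists 2 starts for Hspd1. The window from 250 bases before to 50 after one of them, on the minus strand, shares 285 of its 300 bases with the Hspe1 window on the plus strand, and the window of the other start shares 4. The 250 bases before the Hspe1 start, chr1:55087898-55088147 on the plus strand, are shown because they belong to the windows of 2 genes that both rose. The stretch lies within the RefSeq extent of Hspd1, whose outer start lies beyond it. Capitals mark the letters CCGGAAG, the core of sites for GABP and other ETS factors, here on both strands in overlap, and AAGGTCA, the core of sites for estrogen-related receptors (ERR).
Hspe1: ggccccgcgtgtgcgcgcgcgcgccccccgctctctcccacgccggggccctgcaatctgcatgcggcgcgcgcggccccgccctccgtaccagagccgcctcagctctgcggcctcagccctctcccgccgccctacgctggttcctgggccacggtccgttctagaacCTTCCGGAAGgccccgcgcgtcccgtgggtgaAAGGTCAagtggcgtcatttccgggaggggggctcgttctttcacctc

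The matrix proteases rose as well. Lonp1, the main ATP-dependent protease of the matrix, read 10.51 and 10.48 in the mutant and 9.52 and 9.76 in wild-type, a rise of 0.85 or 1.80-fold (SE 0.108, adjusted p = 7.81e-04). Clpp, the protease chamber of a second matrix protease, read 10.92 and 10.87 in the mutant and 10.12 and 10.30 in wild-type, a rise of 0.68 (SE 0.102, adjusted p = 0.00186). Clpx, the unfoldase that feeds Clpp, read 9.63 on both mutant arrays and 9.28 and 9.13 in wild-type, a rise of 0.43 (SE 0.0972, adjusted p = 0.0129). All 3 were separated by genotype, but the Clpx call ended when either mutant array was left out and when its 2 probe sets were averaged (0.29, adjusted p = 0.065). Timmdc1, an assembly factor of respiratory complex I that shares the family name, rose by 0.38 (SE 0.101, adjusted p = 0.0253), a call that also ended without either mutant array.

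Differences within 10 pairs of paralogues or partners were compared. Grpel1 minus Grpel2 was higher in the mutant by 0.91, Tomm40 minus Tomm40l by 0.51, Timm8a1 minus Timm8b by 0.49 and Timm17a minus Timm17b by 0.32. Timm17b read 9.70 and 9.55 in the mutant and 9.62 on both wild-type arrays, and its difference was 0.00 (95% interval -0.22 to 0.23). Its other probe set above the filter gave 0.20 without overlap, so the Timm17 contrast depends on the probe set. On the brightest probe sets, both mutant arrays exceeded both wild-type arrays in the within-pair difference of each of these 4 pairs. This was not particular to them, because the genotypes also separated, in either direction, in every other pair of the 10. How often other pairs of genes separate in this way was not counted. With 2 against 2 arrays an exact 2-sided permutation test cannot go below p = 0.333, which each of the 10 pairs gave, also after Benjamini-Hochberg adjustment. The design therefore cannot test these differences, and the values are a description.

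**Figure D3:**
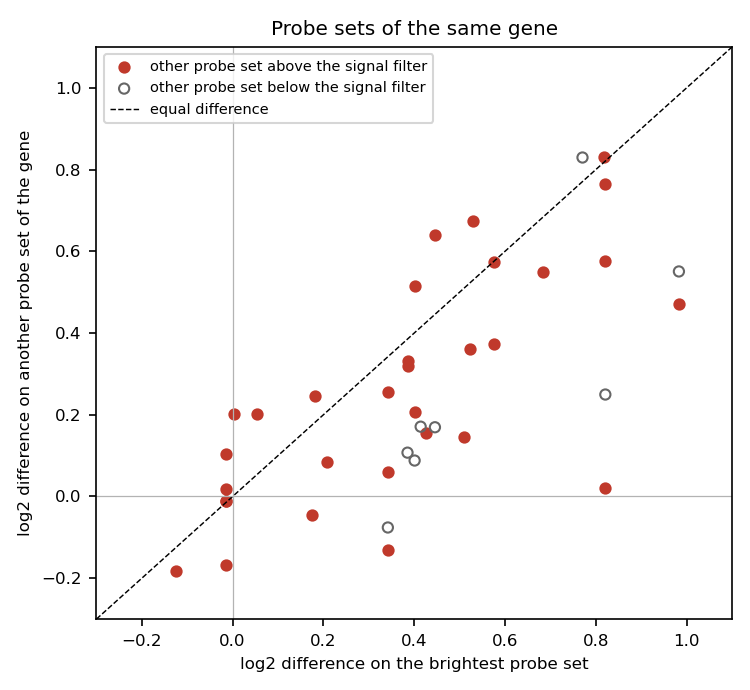
Log2 difference between Lgr4 mutant and wild-type on the brightest probe set of a gene (x axis) against the difference on each other probe set of that gene (y axis); filled points lie above the signal filter, open points below it, and the dashed line marks equal values. Filled points of the genes that rose are all above 0 and most lie below the line.

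The 39 genes had 78 probe sets, 68 of them above the filter. For the genes that rose, 12 had another probe set above the filter, 17 such probe sets in all, and each of the 17 was higher in the mutant. In 13 of the 17 the difference was smaller than on the brightest probe set. The second probe set of Timm22, at 6.87 and 7.06 in the mutant and 6.89 and 6.75 in wild-type, overlapped between genotypes, as did that of Clpx (0.16) and the dimmest Hspa9 probe set above the filter (0.02). With all probe sets of a gene averaged, 26 members rose and none fell, and the median difference was 0.37.

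Promoter windows from RefSeq (GRCm38.p6, 250 bases before to 50 after the gene start) were found for 34 of the 39 genes. The letters CCGGAAG, on either strand, occurred in 16 of the 34 (47.1%), against 18.5% of 10567 tested genes with a window and 8.86% of all 32851 windows. The Hspd1 and Hspe1 matches are the same bases, counted once for each gene. The letters were in 10 of 25 windows of genes that rose and in 6 of 9 windows of the other members. The ERR core AAGGTCA occurred in 5 of 34 (14.7%), against 3.99% of tested genes and 4.72% of all windows, and the 5 genes (Hspd1, Hspe1, Timm23, Timm44 and Timm8b) all rose, as did 25 of all 34 members with a window. Here too the Hspd1 and Hspe1 matches are 1 shared site. The NRF1 letters GCGCATG occurred in 4 (11.8%, against 7.35% of tested genes and 3.91% of all windows), in Clpx, Grpel1, Pam16 and Timm13. The E-box CACGTG occurred in 7 (20.6%, against 11.4% and 7.15%), the YY1 letters AAGATGG in 4 (11.8%, against 8.05% and 6.34%) and TGATGCA, from the composite site of ATF4 and CHOP, in 1 (2.94%, against 2.51% and 3.15%). The CRE letters GACGTCA occurred in none of the 34, against 5.80% and 3.21%. A match says only that the letters are present.

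The stretches around the ERR core in an import channel gene, the motor anchor and a small chaperone are shown because all 3 genes rose, with the core in capitals. They lie at chr14:32201868-32201897 on the minus strand for Timm23, chr8:4275884-4275930 on the minus strand for Timm44 and chr9:50603787-50603833 on the plus strand for Timm8b. In Timm23 the core overlaps a CCGGAAG match.
Timm23: tcacgggagccggcgcccggAAGGTCAgcg
Timm44: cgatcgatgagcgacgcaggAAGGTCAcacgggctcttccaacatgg
Timm8b: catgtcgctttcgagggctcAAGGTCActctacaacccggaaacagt

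Stretches with the ETS core in capitals are shown for an exchange factor, a small chaperone and a peptidase that rose. They lie on the plus strand at chr5:36464961-36465007 for Grpel1, chr2:84826985-84827031 for Timm10 and chr5:21737124-21737170 for Pmpcb, and in Grpel1 and Timm10 the match is to the opposite strand.
Grpel1: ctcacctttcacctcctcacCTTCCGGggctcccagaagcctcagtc
Timm10: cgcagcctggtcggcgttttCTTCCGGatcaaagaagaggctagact
Pmpcb: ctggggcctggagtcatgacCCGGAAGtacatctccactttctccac

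Of 15 other genes of mitochondrial import and folding tested, 9 rose, 6 did not pass and none fell, with a median difference of 0.34. Trap1, the mitochondrial Hsp90, read 10.02 and 9.94 in the mutant and 9.12 and 9.02 in wild-type, a rise of 0.91 (SE 0.0957, adjusted p = 2.85e-04). Dnaja3, a J-protein partner of Hspa9, rose by 0.60, Xpnpep3, a peptidase that trims imported proteins further, by 0.54 and Bcs1l, an assembly factor of complex III, by 0.45. Chchd4, the oxidoreductase that folds small TIM proteins, differed by 0.26 without passing (adjusted p = 0.0667), and Dnlz, the cochaperone that keeps Hspa9 soluble, by -0.08 (adjusted p = 0.566). Hscb, a J-protein of iron-sulfur cluster assembly, read 8.79 and 8.76 in the mutant and 8.91 and 9.05 in wild-type, a difference of -0.20 that did not pass (adjusted p = 0.15). Leaving out mutant replicate 1 lowered the count of risers to 2, and leaving out mutant replicate 2 lowered it to 3.

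Of 10 further proteases and quality control genes tested, 2 rose and none fell, with a median of 0.15. Among all genes tested 11.1% were higher and 18.7% lower, so a count of 2 in so short a list says little. The risers were Phb2, a prohibitin scaffold of the inner membrane (0.69, SE 0.101, adjusted p = 0.00172), and Clpb, a disaggregase of the intermembrane space (0.54, SE 0.104, adjusted p = 0.00633). The inner membrane proteases Afg3l2 (0.29, adjusted p = 0.0614), Spg7 (0.11) and Yme1l1 (-0.21, adjusted p = 0.342) did not pass. With wild-type replicate 2 left out, 4 of these genes rose and 2 fell.

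Chaperones of 2 other compartments were described beside the mitochondrial ones. Of 15 chaperones of the endoplasmic reticulum, 8 fell, 1 rose and 6 did not pass, with a median difference of -0.32. Pdia3, a disulfide isomerase, read 10.99 and 10.97 in the mutant and 11.85 and 11.68 in wild-type, a difference of -0.79 (SE 0.10, adjusted p = 7.84e-04). Its other probe set above the filter gave -0.16. Sdf2l1 (-0.66), Dnajc3 (-0.54) and Creld2 (-0.37), also fell, and the riser was the J-protein gene Dnajb9 (0.39). All 4 of these belong to the unfolded protein response of that compartment. Counts of fallers there were 2 without mutant replicate 1, 3 without mutant replicate 2 and 12 without wild-type replicate 2.

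Of 19 cytosolic chaperones none rose, 3 fell and 16 did not pass, with a median of -0.14. The 15.8% that fell compares with 18.7% lower among all genes tested. The fallers were the heat-inducible Hsp70 genes Hspa1b (-1.24, SE 0.131, adjusted p = 2.81e-04) and Hspa1a (-0.75), near-identical copies whose probes may share signal, and Hspa4 (-0.32), an Hsp110 family member whose call ended without the filter (adjusted p = 0.0542). Hspa8, which with Hsp90 hands carrier precursors to Tomm70a, differed by -0.09 (adjusted p = 0.526). Leaving out wild-type replicate 2 raised the count of fallers to 7, and leaving out either mutant array lowered it to 2. Whether the compartments differ from each other was not tested.

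**Figure D4:**
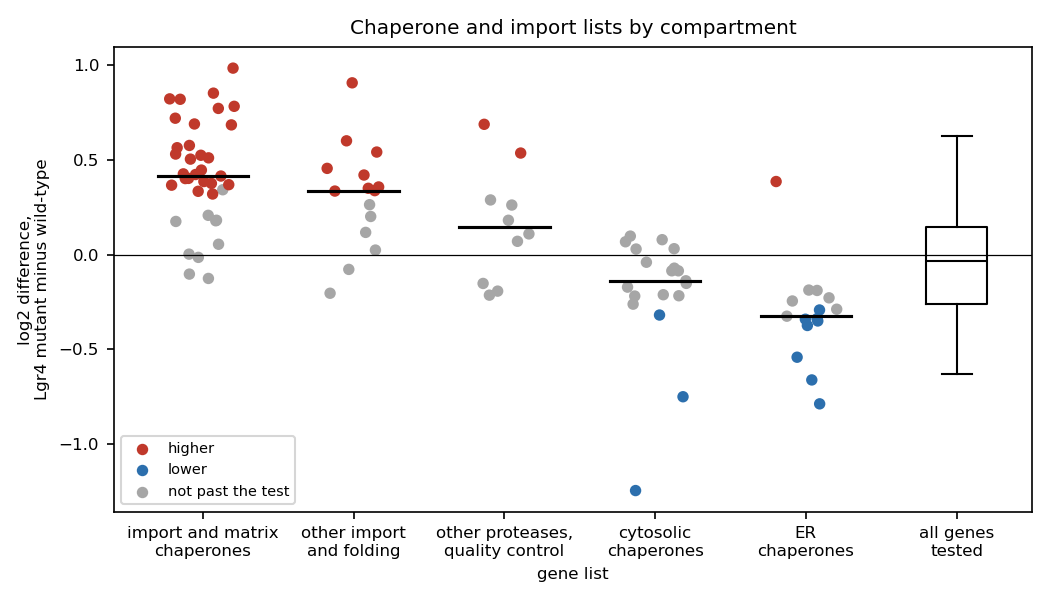
Log2 difference between Lgr4 mutant and wild-type (y axis) for each tested gene of 5 lists (x axis), coloured by the limma call, with a black line at each list's median; the box shows the quartiles of all 13173 tested genes and its whiskers the 5th and 95th percentiles. Medians stand at 0.41, 0.34 and 0.15 for the mitochondrial lists, -0.14 for cytosolic and -0.32 for ER chaperones.

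Hspd1, Hspe1, Hspa9, Lonp1 and Clpp are also textbook targets of the mitochondrial unfolded protein response, in which Atf5, Ddit3 (CHOP) and Atf4 take part. On these arrays Atf5 read 9.98 and 10.07 in the mutant and 10.11 and 10.45 in wild-type, a difference of -0.25 that did not pass (adjusted p = 0.161). Ddit3 differed by -0.19 (adjusted p = 0.203) and Atf4 by -0.10 (adjusted p = 0.474). The other probe set above the filter gave -0.33 for Ddit3 and -0.53 for Atf4, so the size of both differences depends on the probe set. Among 11 tested stress response genes, 3 rose, 1 fell and 7 did not pass, with a median of -0.04. Among all genes tested 11.1% were higher and 18.7% lower. The risers were Psat1, of serine synthesis (0.94, SE 0.0932, adjusted p = 1.98e-04), the hormone gene Fgf21 (0.67) and Asns, asparagine synthetase (0.42), and the faller was Cebpb (-0.45). The Asns and Cebpb calls ended when either mutant array was left out. Trib3 (-0.21) and Chac1 (-0.04) did not pass. Psat1, Asns, Fgf21, Trib3 and Chac1 are all known targets of Atf4. The arrays measure RNA and not protein, and whether a stress response took part in the rises was not tested.

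Counts for 2 other families of nuclear-encoded mitochondrial genes are given beside these. For mitochondrial ribosomal proteins (symbols Mrpl and Mrps), 48 of 76 rose and none fell, with a median of 0.37, and for Nduf genes of complex I, 30 of 43 rose and none fell, with a median of 0.49. The import and matrix chaperone genes, with 27 of 37 higher and a median of 0.41, lie between these medians, and no difference between the families was tested. Without mutant replicate 1 the counts were 15 and 19 in those 2 families, and without mutant replicate 2 they were 19 and 22.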

How the data were processed

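RNA was labelled from 500 ng of total RNA for an Affymetrix 3' array, per the labels' protocols. The authors deposited 1 log2 signal for each probe set, made with Partek 6.6 and RMA, per the submitters' processing notes; that they are log2 follows from their range, and the variant of RMA is not given in the sources used here. RMA makes array distributions equal, which removes differences in total RNA, and compresses differences near background. Of 45101 probe sets, 64 controls were left out and 34945 named 1 gene. The brightest probe set per gene was tested if its mean exceeded the 40th percentile (6.13). Values of genes below it come from a fit without the filter.

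The genotype difference was fitted in R 4.3.3 by limma 3.58.1 (lmFit, eBayes without trend), Benjamini-Hochberg adjusted over 13173 genes, threshold 0.05, all 2-sided. There were 2 residual and 6.21 prior degrees of freedom. Precision is limited by the number of arrays. The fit was also run on simulated arrays with independent noise of equal spread in both genotypes. The real replicates differed more in wild-type than in the mutant, so that run checks the code and not the calls made here. Alternatives were the filter, the probe set rule, 2 scalings, a variance trend, each array left out and a replicate block. Members and gene lists were chosen with earlier results of these data known. By rule any member may be named, with per-array values for the 8 largest risers, the central subunits and the pairs, and from each other list up to 4 called genes in each direction. Per-array values of other members, and genes of other lists that did not pass, were chosen after their values were seen. Gene names and promoters are from RefSeq GRCm38.p6.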

Additional observations from a re-analysis of the deposited data

How the results depend on the processing

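No member fell in any of the 11 alternatives, and the number that rose was 26 to 28 in all but 2 of them. When 1 array was left out, members called ranged from 14 to 28, all genes called from 1851 to 6349 and in the 2 other mitochondrial lists from 3 to 15, against 11 with all arrays, and the median log2 difference of members from 0.40 to 0.44. A lone array was assumed to vary like the other genotype, and the median absolute difference between replicates was 0.0726 in mutant and 0.14 in wild-type. The members' median was 0.37 with all probe sets averaged, 0.45 after a second quantile normalization and 0.38 after centring on array medians. Small differences that never passed changed sign: Timm17b was -0.0306 after median centring and -0.0689 to 0.0741 when 1 array was left out, Tomm20 -0.0926 to 0.0636, Timm29 -0.00548 to 0.11 and Tomm34 -0.22 to 0.01. Tomm70a passed after the second quantile normalization (0.41, adjusted p = 0.0274), with a variance trend (adjusted p = 0.0399) and with the replicate block (adjusted p = 0.012). Replicate numbers are shared by the genotypes, but nothing in the labels pairs them, and deviations of same-numbered arrays correlated at 0.159 over tested genes. With the replicate block 28 members and 4879 genes were called. With all 4 arrays the smallest difference that passed among members was 0.32.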
